A study of Mus musculus with 2 samples.

Results

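The genes described here are 10 cytokine genes, taken by symbol: 7 that brain tissue is known to express at rest, Cx3cl1, Il33, Il34, Cxcl12, Tgfb2, Il18 and Tgfb1, and 3 inflammatory ones, Tnf, Il6 and Il1b. They are 10 of the 55536 annotated genes of the deposited tables and 10 of the 22028 protein-coding ones. All 10 symbols were found, each with 1 gene row. The members were not chosen by a threshold on their values.

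The study measured total RNA, which includes unspliced and non-polyadenylated RNA, in the hippocampus of male B6CASTF1/J mice, the hybrid of C57BL/6J and CAST/EiJ, aged 18 to 20 months. The 2 libraries, replicates 1 and 2, form a single group and used 300 ng of RNA each; no treatment, younger age, other sex or other strain is among them. The labels name the tissue as a hippocampal layer and give both libraries the same donor record, and they do not say whether the 2 libraries came from separate animals, so the spread between them may be technical. The design therefore allows levels and the order of genes to be compared, but no condition, and 2 values cannot give an exact two-sided p below 0.5, so no p is given.

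Cytokines are secreted or membrane-bound signals. Cx3cl1 (fractalkine, a chemokine tethered to neurons), Il34 (a ligand that keeps microglia alive), Cxcl12 (a chemokine that guides migrating cells) and the Tgfb ligands (which hold microglia in their resting state) act in the undisturbed brain, and Il33 and Il18 are IL-1 family proteins made ahead of injury, Il33 being stored in the nucleus and Il18 as an inactive precursor. Tnf, Il6 and Il1b are induced at the level of transcription by NF-kB after infection or damage, and in resting tissue they are known to be scarce.

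Replicate 1 held 34563482 expected counts over all genes and replicate 2 held 32370292, so that 3 counts, taken here as the limit of a count of 0 and close to its one-sided 95% Poisson limit, equal 0.0868 and 0.0927 CPM, that is, counts scaled to the library total. Intervals and limits cover counting error only. Lists of marker genes checked the labelled tissue. All 6 astrocyte, all 6 oligodendrocyte, all 5 excitatory neuron and all 8 microglial markers reached 1 TPM in both libraries, where TPM is the transcript level corrected for length and scaled to the library. Of all protein-coding genes, 57.5% reached it in both, the share to set beside each marker list here. For the markers just named, levels say more than such counts. The summed levels of these markers were 1184 and 1209 TPM for astrocytes, 1341 and 1307 TPM for oligodendrocytes, 2676 and 2729 TPM for excitatory neurons and 165 and 178 TPM for microglia, in replicates 1 and 2. Vascular and meningeal markers were lower, with sums of 67.6 and 68.9 TPM for endothelium, 49.3 and 43.8 TPM for mural cells and 47.1 and 57.0 TPM for meningeal fibroblasts. All 6 endothelial, 5 of 6 mural and all 6 meningeal markers reached 1 TPM in both libraries. The higher meningeal sum in replicate 2 rests on Igf2, at 16.8 and 29.1 TPM. Dcn had 19.5 and 19.6 TPM, and Lum, Col1a1, Col1a2 and Slc6a13 were lower in replicate 2. The libraries stood apart in choroid plexus markers, whose summed level was 37.2 TPM in replicate 1 against 699 TPM in replicate 2, with 4 of 6 markers at 1 TPM or more in both. Ttr, the transthyretin of that epithelium, made up 29.9 and 672 TPM of these sums. None of the 7 neutrophil and monocyte markers and none of the 8 lymphocyte markers reached 1 TPM in both libraries, with S100a9, Ly6g and Camp at 0 counts in both; in the second quantification 1 of the 7, Ly6c2, did. In such bulk tissue, fewer cells of a type and less RNA per cell cannot be told apart.

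Sequences are shown for 2 constitutive genes whose results turn on transcript form and for the windows around the start of the members at each end of the order. Cxcl12 (chr6:117168535-117181367, mm10, forward strand) has 3 coding transcripts that share their first 267 coding bases and differ in the end. The last 30 shared bases are in lower case and the end that belongs to each form, stop codon included, is in capitals, 5′ to 3′, from the GENCODE M21 transcripts.
Cxcl12-201, 119 amino acids: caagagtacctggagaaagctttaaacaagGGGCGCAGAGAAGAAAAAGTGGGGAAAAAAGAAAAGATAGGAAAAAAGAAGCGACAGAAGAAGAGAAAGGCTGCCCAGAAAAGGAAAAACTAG
Cxcl12-202, 89 amino acids: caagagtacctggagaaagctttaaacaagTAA
Cxcl12-203, 93 amino acids: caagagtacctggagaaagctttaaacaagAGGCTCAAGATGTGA
The first of these forms ends in a lysine-rich and arginine-rich tail coded by 93 bases of its own, while the others add 3 and 15 bases, including the stop.

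Il33 (chr19:29925114-29960718, forward strand) has an upstream and a downstream transcript start, and the RefSeq windows on GRCm38.p6 from 250 bases before to 50 bases after each of them are chr19:29924863-29925162 and chr19:29945540-29945839. The windows of Cx3cl1, the highest member (chr8:94771930-94772229, forward strand), and of Il1b, at 0 counts (chr2:129371090-129371389, reverse strand), stand beside them. Capitals mark TATAAA, the core of the TATA box, which was searched for on both strands.
Il33, upstream start: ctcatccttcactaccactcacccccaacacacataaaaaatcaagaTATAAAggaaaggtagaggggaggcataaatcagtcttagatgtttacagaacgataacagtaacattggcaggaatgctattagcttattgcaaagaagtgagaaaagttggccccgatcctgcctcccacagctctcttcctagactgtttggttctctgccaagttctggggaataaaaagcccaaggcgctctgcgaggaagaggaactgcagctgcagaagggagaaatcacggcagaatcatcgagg
Il33, downstream start: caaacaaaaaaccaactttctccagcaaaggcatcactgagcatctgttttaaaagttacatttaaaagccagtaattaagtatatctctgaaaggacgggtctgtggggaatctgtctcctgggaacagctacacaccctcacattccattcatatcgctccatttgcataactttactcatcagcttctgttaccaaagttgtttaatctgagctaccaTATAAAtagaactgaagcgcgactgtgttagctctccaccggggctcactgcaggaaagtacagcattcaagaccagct
Cx3cl1: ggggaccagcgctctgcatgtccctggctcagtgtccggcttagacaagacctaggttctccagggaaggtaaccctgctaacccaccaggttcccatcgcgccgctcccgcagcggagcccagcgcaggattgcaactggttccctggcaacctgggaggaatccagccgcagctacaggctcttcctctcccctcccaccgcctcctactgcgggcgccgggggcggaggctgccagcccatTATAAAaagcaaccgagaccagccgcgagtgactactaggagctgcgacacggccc
Il1b: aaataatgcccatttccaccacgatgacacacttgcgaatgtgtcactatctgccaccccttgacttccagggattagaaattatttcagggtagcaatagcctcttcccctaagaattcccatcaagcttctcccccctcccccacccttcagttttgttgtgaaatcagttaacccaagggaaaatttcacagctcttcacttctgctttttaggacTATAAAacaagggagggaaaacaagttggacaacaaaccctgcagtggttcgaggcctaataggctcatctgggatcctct
The letters began 31 bases before the start in Il1b, 29 before it in the downstream Il33 window and 203 before it in the upstream Il33 window. The RefSeq start of Cx3cl1 differs from that of Cx3cl1-201, which begins upstream at 94772009 and holds most of the gene's TPM, so the marked letters of Cx3cl1 lie within the span of that transcript and not before its start. On either strand they were in the windows of 6 of the 9 members with a window, Cx3cl1, Il33, Tgfb2, Il18, Tnf and Il1b, while 13.6% of all 32851 windows held them. These are unlike measures, since members are counted as genes and Il33 has an upstream and a downstream window. In Il18 the letters were on the opposite strand only. Il34 has no entry. The NF-kB consensus was found in the window of Il6 among the 9, against 4.51% of all windows. Such matches are descriptions of these letters and not of binding.

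The levels separated without overlap into the 7 constitutive and the 3 inflammatory genes. All 7 constitutive members reached 1 TPM in both libraries, so 7 of the 10 members passed that level, against 57.5% of all protein-coding genes. The 3 inflammatory members had at most 3 counts in each library, as did 28.6% of all protein-coding genes.

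Cx3cl1 (ENSMUSG00000031778.13, chr8:94772009-94782427, forward strand), whose shed or tethered product acts on microglia, had 158 TPM in both libraries, from 12162 counts in replicate 1 and 11294 in replicate 2. This level is above that of 98.1% of protein-coding genes, and the libraries barely differed, with a mean of 157.7 ± 0.198 TPM (SD, n = 2).

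Il33 (ENSMUSG00000024810.16), the nuclear alarmin that in brain is known from astrocytes and oligodendrocytes, had 36.0 TPM in replicate 1 and 37.2 TPM in replicate 2, from 1654 and 1534 counts. Cx3cl1 was 4.31 ± 0.0938 times as high (SD, n = 2).

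Il34 (ENSMUSG00000031750.15, chr8:110741829-110805924, reverse strand), the neuronal ligand of the receptor Csf1r, had 28.0 TPM in replicate 1 and 31.8 TPM in replicate 2, from 762 and 802 counts. Il33 was 1.23 ± 0.0838 times as high (SD, n = 2), and its range did not overlap that of Il34. Its annotated antisense partners Gm15894 and Gm15895 had at most 8 counts in a library; whether counting used strand is not stated, so reads of such pairs cannot be told apart.

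Cxcl12 (ENSMUSG00000061353.11), the ligand of Cxcr4, had 18.3 TPM in replicate 1 and 18.1 TPM in replicate 2, from 1549 and 1330 counts. Its level is above that of 75.3% of protein-coding genes, and Cx3cl1, the other chemokine, was 8.68 ± 0.0819 times as high (SD, n = 2). In the second quantification Cx3cl1 was 11.8 times as high.

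Tgfb2 (ENSMUSG00000039239.14, chr1:186622792-186705989, reverse strand), a TGF-beta ligand, had 10.6 TPM in replicate 1 and 13.5 TPM in replicate 2, from 1136 and 1176 counts. The libraries lay further apart than for most members, with an SD of 2.00 TPM (n = 2). The antisense gene Gm29491 overlaps it, at 8 and 4 counts.

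Il18 (ENSMUSG00000039217.13, chr9:50554827-50581840, forward strand), the precursor that caspase-1 cleaves, had 9.89 TPM in replicate 1 and 10.2 TPM in replicate 2, from 190 and 173 counts. Tgfb2 was 1.19 ± 0.169 times as high (SD, n = 2), so these neighbours in the order lie close, with a gap between their ranges that is narrower than the range of Tgfb2. Restricted to protein-coding transcripts, Tgfb2 had 9.50 and 10.1 TPM, below Il18 in each library. In the second quantification, coding transcripts of Tgfb2 had 15.4 and 16.5 TPM and those of Il18 18.4 and 18.7 TPM. The place of Tgfb2 above Il18 therefore depends on which transcripts are counted. Bco2, a carotenoid-cleaving enzyme gene that overlaps Il18 on the other strand, had 80 and 69 counts, so the level of Il18 is uncertain to that extent.

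Tgfb1 (ENSMUSG00000002603.15, chr7:25687002-25705077, forward strand), the TGF-beta ligand of microglial homeostasis, was the lowest of the constitutive members, with 3.03 TPM in replicate 1 and 3.28 TPM in replicate 2, from 144 and 129 counts. It stood above 50.01% of protein-coding genes, in the middle of their order. The members thus span 50.1 ± 2.74 times (SD, n = 2) between Cx3cl1 and Tgfb1, and 63.0 times in the second quantification. By gene TPM, no neighbours in the order of the 7 had overlapping ranges over the 2 libraries.

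Tnf (ENSMUSG00000024401.14, chr17:35199381-35202007, reverse strand), the membrane and secreted trigger of NF-kB signalling, had 2 counts in replicate 1, with an exact two-sided Poisson 95% interval of 0.242 to 7.22, and 0 in replicate 2. Il6 (ENSMUSG00000025746.11, chr5:30013114-30019981, forward strand), the ligand of the Il6ra and Il6st receptor pair, had 0 counts in replicate 1 and 1 in replicate 2, with an interval of 0.0253 to 5.57. Il1b (ENSMUSG00000027398.13, chr2:129364570-129371139, reverse strand), the caspase-1 substrate of the IL-1 family, had 0 counts in both libraries, for which the limit of 3 counts equals 0.169 and 0.183 TPM in replicates 1 and 2. No order among these 3 genes can be read from 3 counts in all, and levels below those limits were not detectable at this depth. Il1bos, annotated antisense to Il1b, had 2 counts in each library, and the second quantification of the same reads gave it 20.5 and 31.2.

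**Figure D1:**
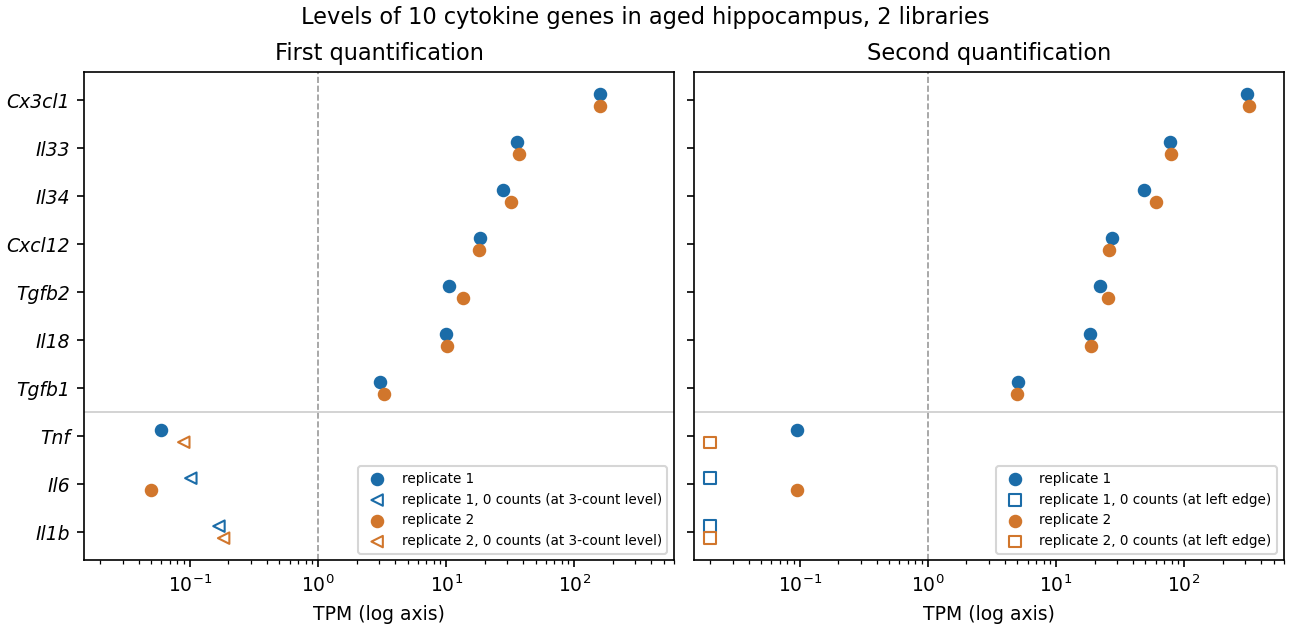
TPM of each gene on a log axis in replicate 1 (blue) and replicate 2 (orange), as deposited in the first and the second quantification. Open triangles stand at the level of 3 counts for genes at 0, open squares at the left edge mark 0, and the dashed line is a TPM of 1. All 7 constitutive genes lie right of the line and the 3 inflammatory genes left of it, and the order of the 7 constitutive genes by mean TPM is the same in both panels.

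The median of the constitutive members was 18.3 TPM in replicate 1 and 18.1 TPM in replicate 2, against 0 TPM for the inflammatory members in both. The constitutive median was 179.7 times the median level of 3 counts in the inflammatory genes in replicate 1 and 119.97 times in replicate 2; these describe the gap and are no lower bounds, since Tnf and Il6 had a few counts whose intervals reach above 3. As counts not corrected for length, the constitutive genes together held 17597 and 16438, and the inflammatory genes 2 and 1. Against Il1b, which had 0 counts and is set at the limit of 3 per library, the lowest constitutive member, Tgfb1, was at least 17.88-fold higher in each library, and Cx3cl1 at least 860.4-fold. Where an inflammatory gene had a count, the ratio has a wide counting interval: Tgfb1 over Tnf was 51.7 in replicate 1 (14.1 to 431), and Tgfb1 over Il6 was 65.3 in replicate 2 (11.5 to 2599).

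Other inflammatory cytokines were low as well. Of 20 such genes, 0 reached 1 TPM in both libraries, against 57.5% of all protein-coding genes. At most 3 counts in each library were found for 15, against 28.6% of all protein-coding genes. In both libraries 9 had 0: Il12b, Il17a, Ifng, Ifnb1, Csf2, Csf3, Ccl4, Ccl5 and Cxcl2. These counts depend on the quantification: the second gave Il23a 17.2 and 10.5 counts and Cxcl9 15.2 and 9.39, where the first gave each 1 and 0, and it gave Ccl5 3 in each library and Csf2 0 and 1, though none of the 20 reached 1 TPM in both libraries there. The highest was Lif, a gp130 cytokine, with 0.72 TPM in replicate 1 and 1.00 TPM in replicate 2, followed by Il12a, Il1a and Lta, at means of 0.205, 0.185 and 0.18 TPM. Il12a had 4 and 3 counts, Il1a 13 and 4 and Lta 5 and 6, so no order among them can be read. In the second quantification Il23a, at 0.665 and 0.444 TPM, and Ccl5, at 0.487 and 0.542 TPM, lay above Il1a and Lta in both libraries. Of 8 other cytokines known from resting brain, 6 reached 1 TPM in both libraries, against 57.5% of all protein-coding genes. Among them Mif, a broadly made cytokine-like protein, averaged 197 ± 8.05 TPM, Cxcl14, an orphan chemokine, 58.9 ± 2.98 TPM, Il16, 24.3 ± 0.134 TPM, and Csf1, the other ligand of Csf1r, 8.77 ± 0.566 TPM (SD, n = 2 each), while Cxcl16 was the lowest at 0.335 ± 0.233 TPM. Mif has near-identical copies in the genome, whose part in its level was not tested. Its level is uncertain, since the second quantification gave it 1573 and 1569 counts against 2141 and 2087 in the first. Cxcl14 was 3.24 ± 0.190 times as high as Cxcl12, and Il34 was 3.43 ± 0.532 times as high as Csf1 (SD, n = 2 each). The level of Il34 here includes transcripts with no coding sequence, and its coding transcripts alone had 13.9 and 15.9 TPM. Tgfb3, named after its values were seen, had 7.66 TPM in both libraries, which places it between its paralogs: Tgfb2 was 1.57 ± 0.261 times as high as Tgfb3, and Tgfb3 2.43 ± 0.136 times as high as Tgfb1.

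Receptors were detected for most ligands, including the 3 that were near 0. Of 17 receptor genes, 14 reached 1 TPM in both libraries, against 57.5% of all protein-coding genes. In the second quantification 15 did, with Il18rap as the added gene. Cx3cr1, the fractalkine receptor of microglia, which like Csf1r is also among the microglial markers above, had 10.5 and 10.9 TPM in replicates 1 and 2, and Cx3cl1 was 14.8 ± 0.402 times as high (SD, n = 2). The second quantification put this ratio at 19.0. For Il34, Csf1r had 30.2 and 31.9 TPM, overlapping the range of Il34, with Il34 at 0.962 ± 0.0509 times Csf1r, and Ptprz1, a receptor phosphatase of glia that also binds Il34, had 49.5 and 51.6 TPM, above Il34 in each library. In the second quantification Il34, at 48.8 and 59.9 TPM, lay above Csf1r, at 47.4 and 48.1 TPM, without overlap. Coding transcripts of Il34 alone had 13.9 and 15.9 TPM in the first quantification, below the gene level of Csf1r. For Cxcl12, the scavenging receptor Ackr3 had 6.11 and 5.96 TPM and the signalling receptor Cxcr4 had 1.24 and 1.42 TPM. Cxcl12 was 3.01 ± 0.0283 times as high as Ackr3, and Ackr3 4.56 ± 0.516 times as high as Cxcr4 (SD, n = 2 each). For the TGF-beta ligands, Tgfbr1, Tgfbr2 and the co-receptor Tgfbr3 averaged 8.49 ± 0.134, 4.14 ± 0.410 and 7.53 ± 0.516 TPM (SD, n = 2 each), all above the range of Tgfb1 and below that of Tgfb2.

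In the first quantification, the receptors specific to Il33 and Il18 were near 0 although their ligands were not. Il1rl1, the Il33 receptor also called ST2, had 3 counts in replicate 1 and 2 in replicate 2. Il18r1 had 1 and 0 counts and Il18rap 4 and 3 counts, while the second quantification gave Il18r1 17.2 counts in both libraries, Il18rap 44.7 and 35.1 and Il1rl1 12.4 and 16.0, so their near-zero counts depend on the quantification. There Il18rap, at 1.06 and 1.10 TPM, passed the level of 1 TPM in both libraries. Il1rap, the subunit that Il33 shares with Il1b, had 25.6 and 21.8 TPM, 7.77 ± 0.143 times Il1r1, the specific Il1b receptor, at 3.25 and 2.84 TPM. In the second quantification Il1rap was 5.23 times Il1r1. Tnfrsf1a and Tnfrsf1b, the Tnf receptors, had 4.63 and 4.23 TPM and 1.09 and 1.06 TPM, and Il6st, the shared signalling subunit, had 29.9 and 33.0 TPM against 2.85 and 2.37 TPM for Il6ra.

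**Figure D2:**
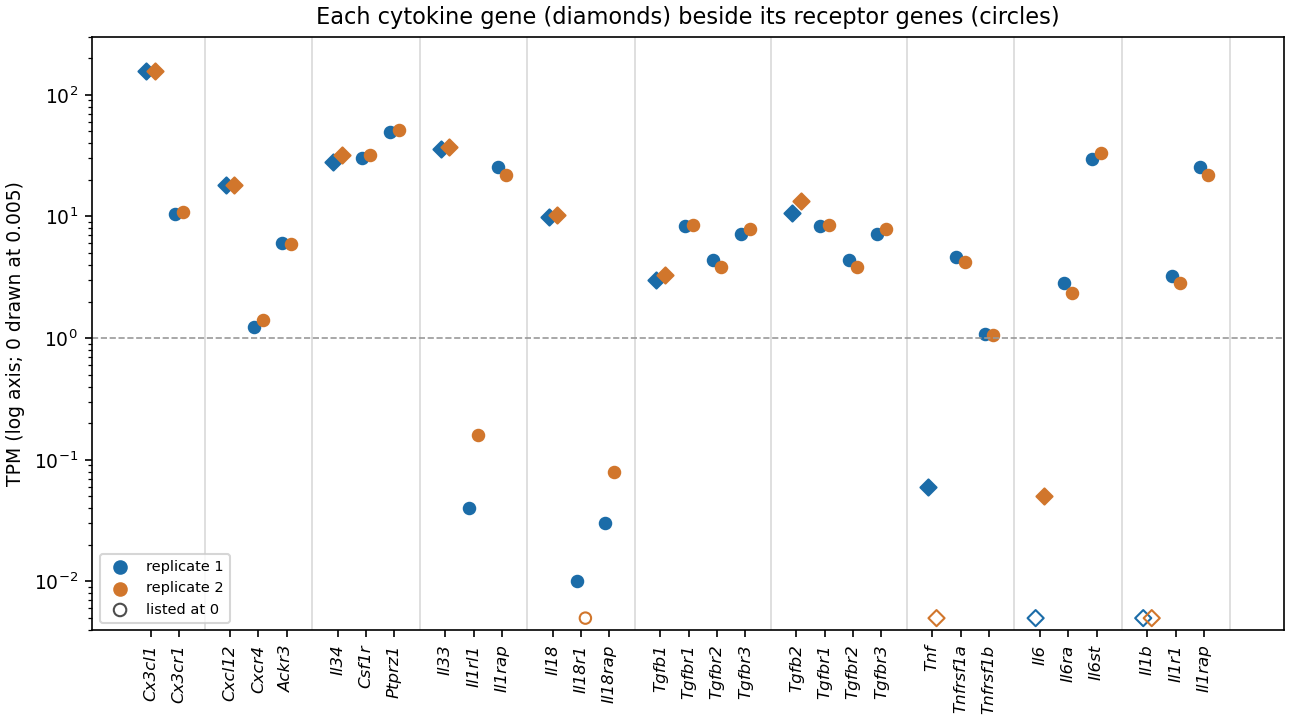
TPM (log axis) of each cytokine gene, drawn as diamonds, beside its receptor genes, drawn as circles, in replicate 1 (blue) and replicate 2 (orange); open symbols at the bottom are listed at 0 and the dashed line is a TPM of 1. Receptors of Tnf, Il6 and Il1b lie above 1 TPM while these ligands lie below it, and Il1rl1, Il18r1 and Il18rap lie below 1 TPM in the first quantification, which is drawn, while Il33 and Il18 lie above it.

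Genes that process or restrain the members differed in level by group. Of 3 decoys and antagonists, Il18bp, which binds free Il18, had 2.39 and 2.57 TPM, so that Il18 was 4.06 ± 0.109 times as high (SD, n = 2). Il1r2 and Il1rn, a decoy receptor and a receptor antagonist of Il1b, had 0 counts in both libraries, though the second quantification gave Il1rn 4.24 and 2.07. Of 7 inflammasome genes, which carry the step from precursor to mature Il1b and Il18, only Gsdmd, the pore-forming gasdermin, reached 1 TPM in both libraries, at 1.93 and 1.78 TPM. Of all protein-coding genes, 57.5% did. Casp1 itself had 17 and 11 counts, Nlrp3 30 and 26, Nlrc4 3 and 3, and Casp4 10 and 3. Pycard, the adaptor, and Aim2, a DNA sensor, reached 1 TPM in 1 library each, Pycard with 0.82 and 1.29 TPM and Aim2 with 1.24 and 0.66 TPM. The second quantification, whose TPM values run higher, put Pycard, Aim2 and Casp4 above 1 TPM in both libraries too, 4 of the 7 genes in all.

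Sheddases and genes of TGF-beta latency were detected for 9 of 11, against 57.5% of all protein-coding genes, and for 10 in the second quantification. Adam10 and Adam17, the proteases that shed Cx3cl1 (Adam17 also Tnf), averaged 26.8 ± 1.26 and 5.98 ± 0.841 TPM (SD, n = 2 each). Furin, which cleaves TGF-beta precursors, averaged 16.4 ± 2.21 TPM. The integrin subunits Itgav and Itgb8, which free TGF-beta from its latent complex, averaged 27.5 ± 2.51 and 12.9 ± 0.297 TPM, and Nrros, which presents latent Tgfb1 on microglia, 5.31 ± 0.615 TPM. Of the latent binding proteins, Ltbp4 and Ltbp3 averaged 17.2 ± 0.141 and 9.34 ± 0.339 TPM, Ltbp1 had 2.00 TPM in both libraries and Ltbp2 was at 0.17 and 0.15 TPM; Ltbp1 had 19.9 and 22.2 TPM in the second quantification. Thbs1, a TGF-beta activator, had 0.80 and 0.71 TPM. Of 10 NF-kB genes, 8 reached 1 TPM in both libraries, against 57.5% of all protein-coding genes. All 10 did in the second quantification. The highest was Nfkbia, the inhibitor that NF-kB itself induces, at 20.6 ± 1.20 TPM. Ikbkg, Ikbkb and Chuk, the subunits of the kinase that marks Nfkbia for degradation, followed at 19.9 ± 0.601, 18.0 ± 1.22 and 16.1 ± 0.905 TPM (SD, n = 2 each). Nfkb2 was the lowest at 0.86 ± 0.0141 TPM.

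At the transcript level, the constitutive genes differed in how much of their TPM came from protein-coding transcripts. The coding share was 100% in both libraries for Il33 and Il18, 98.1% and 99.1% for Cx3cl1, 93.9% and 95.2% for Cxcl12, 89.5% and 75.0% for Tgfb2, 87.5% and 74.1% for Tgfb1 and 49.6% and 50.03% for Il34, in replicates 1 and 2. Il34 stood lowest in both libraries. By counts the coding share was 98.9% and 95.8% for Tgfb2, 95.7% and 90.2% for Tgfb1 and 73.7% and 73.9% for Il34. Short transcripts with few counts weigh more in TPM. Tgfb1-205, of 241 bases, had 0 counts in replicate 1 and 1 in replicate 2, where it held 9.32% of the gene's TPM. The lower coding shares of Tgfb1 and Tgfb2 by TPM thus rest on few counts. Part of the coding share of Il33 came from fragments, and its transcripts with a complete coding sequence held 68.5% and 65.7%. In the second quantification such transcripts held 49.4% and 49.2% for Il33, below the 57.7% and 52.4% for Il34.

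The transcript that set Il34 apart was Il34-205, 675 bases with no annotated coding sequence, at chr8:110741829-110742698, the 3′ end of the gene. It held 49.0% and 49.3% of the gene's TPM, against 48.2% and 48.6% for Il34-201, which codes for the 235-residue protein. By counts, Il34-205 held 26.0% in both libraries, since it is shorter than Il34-201, at 1709 bases. The second quantification gave Il34-205 42.3% and 47.4% of the TPM. Restricted to coding transcripts, the level of Il34 was 14.9 TPM, below Cxcl12 at 17.2 TPM by the same measure, so in the first quantification the place of Il34 above Cxcl12 rests on Il34-205. In the second, coding transcripts of Il34 had 28.2 and 31.4 TPM and those of Cxcl12 25.8 and 24.7 TPM, and Il34 stayed above.

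**Figure D3:**
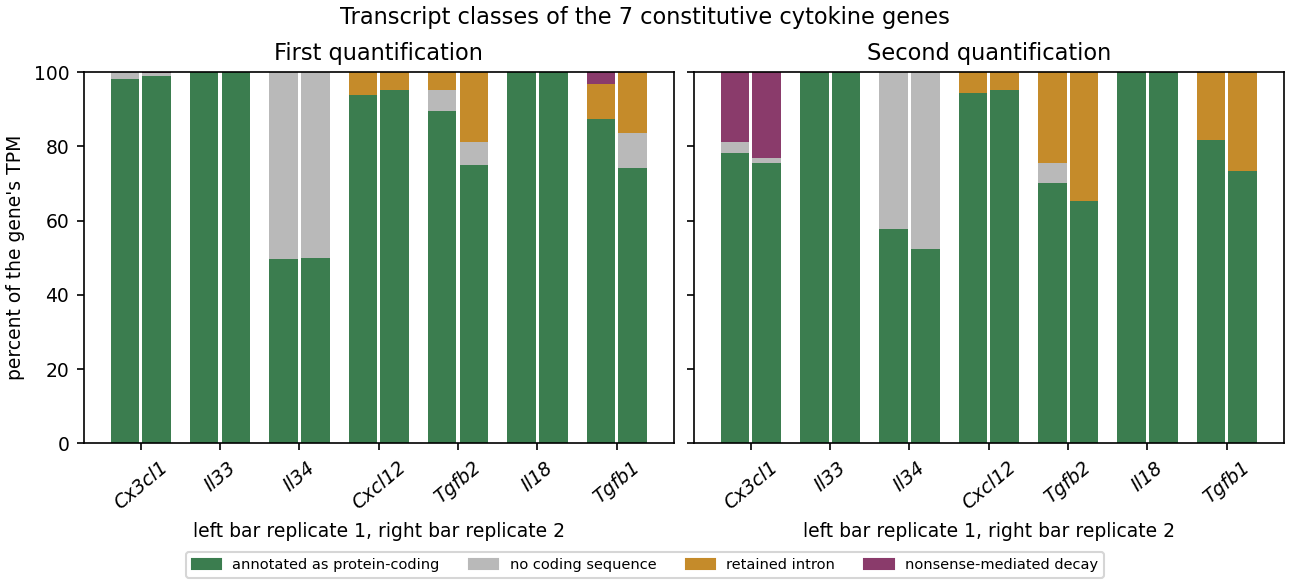
Percent of each constitutive gene's TPM held by protein-coding, non-coding, retained-intron and nonsense-mediated decay transcripts (stacked bars from 0 to 100; left bar replicate 1, right bar replicate 2), in the first and the second quantification. Il34 has the smallest protein-coding share, and Cx3cl1 has decay transcripts at 18.8% and 23.1% in the second quantification against 0% and 0.247% in the first.

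Cxcl12 was split between forms with different ends. The 89-residue form, whose end is the short one printed above, held 46.6% and 52.7% of the gene's TPM, the 119-residue form with the basic tail 37.9% and 33.3%, and the 93-residue form 9.47% and 9.19%. By counts the 119-residue form was the largest, at 62.0% and 57.7%, because its transcript is the longest, 5627 bases. The second quantification kept the first 2 forms in this order, with 48.2% and 53.3% for 89 residues and 46.2% and 41.8% for 119 residues, but gave 0% to the 93-residue form, so that form is uncertain.

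For Il33, transcripts from the upstream start held 80.6% and 91.1% of the TPM in replicates 1 and 2. Il33-201, from the downstream start, held 16.0% and 8.15%. The second quantification kept the upstream start ahead, with 66.4% and 85.6% against 33.6% and 14.4%, but in replicate 1 that lead rests on the fragment Il33-204: of the full-length transcripts, the downstream Il33-201 held more than the upstream Il33-202 there, 33.6% against 15.8%, and less in replicate 2, 14.4% against 34.8%. The 2 full-length transcripts code for the same 266-residue protein, and the posterior SD of the count of Il33-201, which measures how uncertain the split is, was 113.8 of 353 counts in replicate 1 and 78.1 of 171 counts in replicate 2. How far the libraries differ in this split is therefore uncertain. Il33-204, a fragment of 377 bases, held 7.34% and 7.13% of the TPM in the first quantification and 45.0% and 40.4% in the second.

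**Figure D4:**
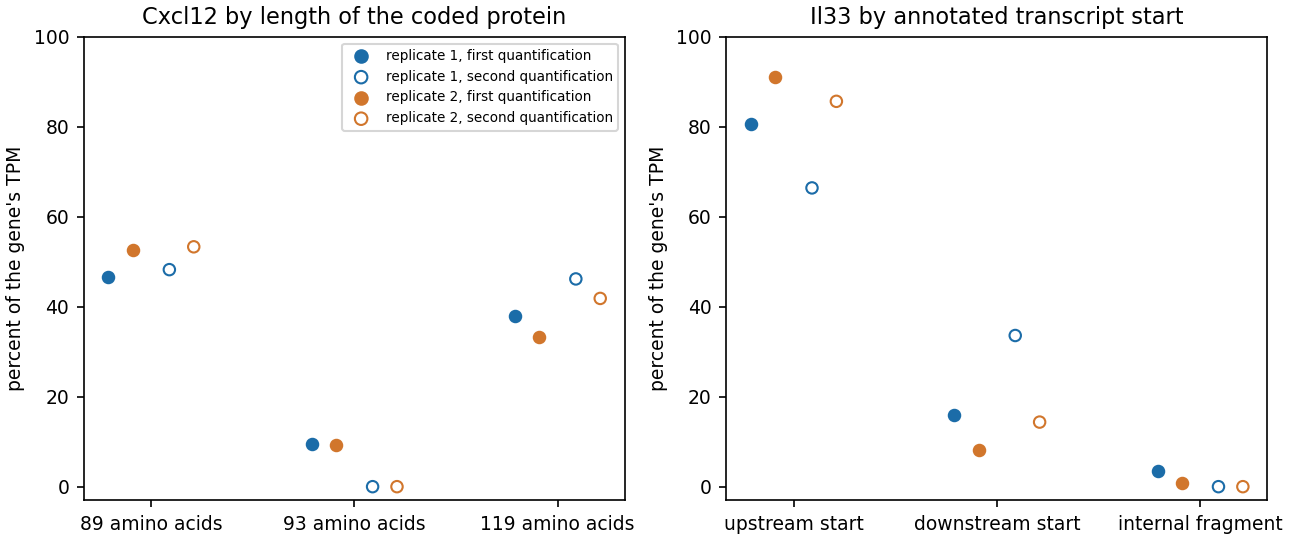
Percent of the gene's TPM by length of the coded protein for Cxcl12 (left panel) and by annotated start for Il33 (right panel), in replicate 1 (blue) and replicate 2 (orange), with filled points from the first and open points from the second quantification. The 89-residue form of Cxcl12 and the upstream start of Il33 are highest in every set of points.

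The other genes were led by 1 form each. Cx3cl1-201, the 395-residue membrane form, held 95.1% and 96.0% of the TPM, though 75.1% and 73.8% in the second quantification, where the decay transcript Cx3cl1-203 took 18.8% and 23.1%. Tgfb2-201, of 414 residues, held 72.9% and 66.8% against 16.7% and 8.18% for the 442-residue form (51.2% and 50.5% against 19.0% and 14.7% in the second quantification), and the retained-intron transcript Tgfb2-205 was at 0% in replicate 1 and 14.5% in replicate 2 (22.2% and 32.7% in the second quantification). Tgfb1-201, of 390 residues, held 87.5% and 74.1% of the TPM and 95.7% and 90.2% of the counts. Il18 transcripts for the 192-residue precursor held 81.1% and 76.0%, and Il18-203, with a 78-residue reading frame, the remaining 18.9% and 24.0%, while the second quantification gave the precursor 63.9% and 61.4% and Il18-203 36.1% and 38.6%. For Tnf and Il6, 3 counts in all give no transcript shares.

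Between the libraries, the constitutive members differed little. After scaling by the trimmed mean of M values, the log2 ratio of replicate 2 over replicate 1 was 0.15 for Il34 (95% counting interval 0.004 to 0.29), 0.12 for Tgfb2 (0.006 to 0.24) and -0.15 for Cxcl12 (-0.25 to -0.04). The other 4 lay between -0.03 and -0.08, with intervals that include 0. Of the 7 members that could be compared, 0 differed by 2-fold or more, against 0.517% of the 14887 genes whose mean reached 1 CPM, and the median size of the log2 ratio was 0.08 for the members and 0.07 for all genes compared. With scaling by the ERCC spike-in RNAs, which shifted the median log2 ratio of all genes to -0.18, the values of Il34 and Tgfb2 turned to -0.03 and -0.05, both above that median. The choroid plexus markers moved between the same libraries, as given above, and their part in the values of the 3 genes whose intervals leave out 0 was not tested.

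**Figure D5:**
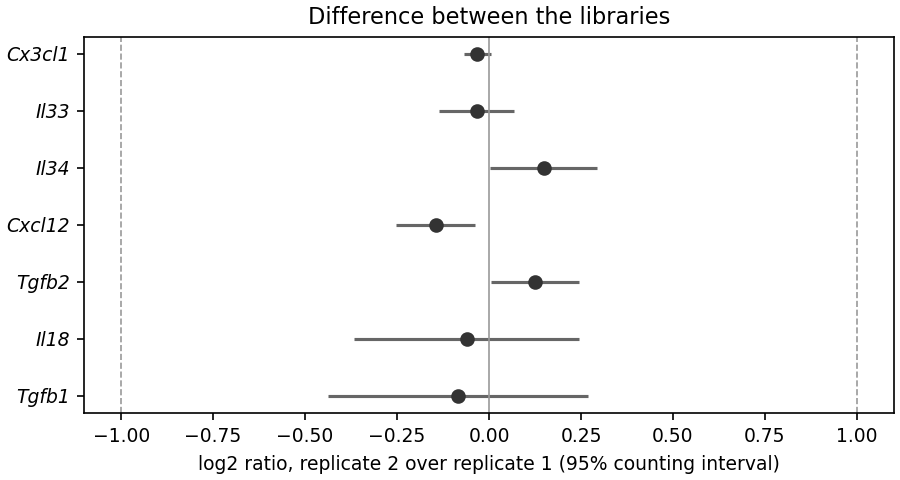
Log2 ratio of replicate 2 over replicate 1 for the 7 constitutive genes (points) with 95% counting intervals (lines); dashed lines mark a 2-fold difference in either direction. All 7 genes lie between -0.15 and 0.15, well inside the dashed lines; Il34, Tgfb2 and Cxcl12 have intervals that leave out 0.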

How the data were processed

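Total RNA of 2 hippocampus libraries was analysed as deposited. The deposited notes name mm10 and GENCODE M21 as assembly and annotation; aligner and counter are not given in the sources used. Per the file headers, the authors' gene and first transcript tables have the RSEM layout and give an expected count and TPM for each feature; the second transcript table, here the second quantification, follows the kallisto layout, with an estimated count and TPM per transcript. The authors also deposited each transcript's percent of its gene and, as a score of uncertainty, the posterior SD of each count. The assembly represents C57BL/6J, so CAST/EiJ reads may be counted with some loss; alleles were not analysed.

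From these files, levels were taken as deposited TPM, and second quantification values were summed per gene. The 26345 rows that name no annotated gene, 96 of them ERCC spike-ins (0.418% and 0.479% of counts), stayed out of library sizes. Expected counts over genes were 34563482 and 32370292, and in the second quantification they were 34854528 and 32438168. Library ratios used trimmed-mean scaling in edgeR 4.0.16 on counts rounded to whole numbers, with 95% Clopper-Pearson intervals based on count shares. DESeq2 1.42.0 size factors were an alternative, under R 4.3.3, and the step was tested on simulated data. Other values came from Python 3.11.15 with pandas 2.3.3 and scipy 1.17.1. A gene was called detected where both libraries reached 1 TPM, and limits rest on 3 counts. Promoter windows are RefSeq's, on GRCm38.p6. All members and every receptor, decoy, inflammasome, sheddase and latency gene are named, and of other lists the 4 highest and the lowest. The members and lists were chosen with earlier results of these data known. Alternatives were a second quantification, other scales, filters and thresholds, and leaving out a library.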

Additional observations from a re-analysis of the deposited data

How the results depend on the processing

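No paired analysis was possible because the study has 1 group. The number of members detected was 7 under every minimum, quantification and single library tried, and the 7 constitutive genes kept their order in the second quantification. The SDs of ratios between genes cover the spread of the libraries in the first quantification and not the change of quantification. By CPM, Il34, at 23.4, lay below Cxcl12 and Tgfb2, at 43.0 and 34.6. By coding transcripts in the first quantification, Il34 lay below Cxcl12 and Tgfb2, at 9.795 TPM, below Il18, at 10.065 TPM. Median TPM over the 10 members was 11.1, and 21.1 in the second quantification, 26.5 when rescaled over nuclear protein-coding genes and 14.4 as CPM; without a replicate it was 10.3 to 11.8. The log2 ratio of the constitutive median over the inflammatory 3-count level was 7.20, and 7.69 in the second quantification, 8.59 as CPM, 4.26 with a pseudocount of 1 and 4.40 as a mean of log2(TPM + 1); without a replicate it was 6.91 to 7.49. A pseudocount of 1 lies above the inflammatory levels, which by construction lowers these values. The 3-count level used the length given for the gene in the first quantification. For the second it used the longest protein-coding transcript, so 7.20 and 7.69 do not differ by quantification alone. Genes 2-fold different between libraries numbered 77, and 16 with a mean CPM of at least 5 and 5540 with no filter. The median coding share of the constitutive genes was 94.6%, and 78.6% in the second quantification; without a replicate it was 93.9% to 95.2%. The cause of the other changes was not tested. Of 28 library ratios under other settings, 23 lay within the member's interval; the other 5 were under ERCC scaling. Depth limits Tnf, Il6 and Il1b to levels near 3 counts, and 2 libraries of 1 group limit every SD.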
